A study of Danio rerio with 12 samples.

Results

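The genes described here encode the subunits of voltage-gated calcium channels other than the L-type and T-type pores. They were chosen by name from the table of all genes. Of 25099 gene names, 47 began with cacn, and 11 of those were L-type or T-type pore genes (cacna1c, the cacna1d, cacna1s, cacna1f and cacna1h genes, cacna1g and cacna1i) and were left out. The remaining 36 comprised 6 pore genes, 8 alpha2delta genes, 7 beta genes and 15 gamma genes. All 36 had enough counts to be tested, among 21581 tested genes.

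Messenger RNA was sequenced from AB strain zebrafish larvae in 4 groups by dose of bepridil (0, 250, 750 or 1295 ng/mL), a blocker of calcium channels that was formerly prescribed for angina. The 0 ng/mL larvae were the controls, and the labels name no vehicle and no start of exposure. Every larva was 120 hours post fertilization, each sample pooled 15 whole larvae, and each dose had 3 samples, so 12 libraries were compared. The labels carry no transgene or mutation, and they call the tissue embryo, so every tissue of the larva contributes to each value. The labels do not tie replicates to separate clutches, so the spread that p-values are built on may be partly or wholly technical.

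A voltage-gated calcium channel is built around an alpha1 subunit, which forms the pore. A cytoplasmic beta subunit and an extracellular alpha2delta subunit help to bring the pore to the membrane and shape its gating. Pores of the P/Q, N and R types (cacna1a, cacna1b and cacna1e genes) sit mainly in neurons, where the calcium they admit triggers transmitter release. The gamma family is mixed: gamma1 belongs to the calcium channel of mammalian skeletal muscle, whereas gamma2, gamma3, gamma4, gamma5, gamma7 and gamma8 are known in mammals as TARPs, auxiliary proteins of AMPA-type glutamate receptors. Most subunits have an a and a b copy in zebrafish. Reads of near-identical stretches cannot be assigned to a single copy with certainty, so the division of a value between copies is uncertain.

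Total counts per library were between 15571556 and 18284169, and single member genes had between 1 and 4072 counts in a library. Levels are given as CPM, a gene's counts relative to its library's total after scaling by a normalization factor, in the order of replicates 1, 2 and 3. Fold changes are log2 values with a standard error (SE), and a gene was called higher or lower where the adjusted p of edgeR's quasi-likelihood test (Benjamini-Hochberg over all tested genes) was under 0.05. Normalization factors lay between 0.8308 and 0.9055 in the 1295 ng/mL libraries, and between 1.011 and 1.075 in all others. Scaled by total counts alone, the median of all genes at 1295 against 0 ng/mL moved to -0.27 and that of the 36 members to -1.30, against -0.02 and -1.04 with the factors. CPM does not correct for gene length, so levels are compared here between libraries and not between genes.

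Some libraries stood apart in these genes. At 1295 ng/mL, replicate 2 was the lowest of its group in 27 of 36 members, against 41.5% of all genes, and it was under 0.5 times the mean of the other libraries in 5 members, against 3.08% of all genes. Without it, 22 members were called lower than at 0 ng/mL, against 27 with it, and without control replicate 3 the count was also 22. At 250 ng/mL, replicate 2 was the lowest of its group in 26 members (33.9% of all genes) and replicate 3 the highest in 26 (39.2%). At 750 ng/mL, replicate 3 was the lowest of its group in 23 members (39% of all genes). It was under 0.5 times the mean of the other 750 ng/mL libraries in 7 members, against 4.26% of all genes. The 7 were cacna1ab, cacna2d2a, cacnb3a, cacnb3b, cacnb4a, cacng3a and cacng5b. Its lowest ratio was that of cacnb4a, which had 2.07 CPM in replicate 3, against 5.24 and 8.38 CPM in replicates 1 and 2.

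At 1295 ng/mL, 27 of the 36 genes were lower than in 0 ng/mL larvae and 0 were higher. All 6 pore genes, all 8 alpha2delta genes, 6 of 7 beta genes and 7 of 15 gamma genes were lower. These 27 are 75% of the members, and 22.2% of all tested genes were called lower in that comparison, while 18.8% were called higher. At an unadjusted p under 0.05, 30 members passed, as did 49.8% of all genes. The shares over all genes depended on the scaling: by total counts alone 30 members were lower and 0 higher. Over all genes that scaling gave 8269 lower and 1401 higher, against 4790 and 4058 with the normalization factors. With DESeq2 26 members were lower and 0 higher, and over all genes 4432 were lower and 4374 higher. The members' median log2 fold change was -1.04, against -0.02 over all genes, and 18 members fell at least 2-fold, which 8.03% of all genes did. In 26 members (72.2%) every 1295 ng/mL library lay below every control library, as was the case for 28.5% of all genes. In bulk samples, fewer cells of a type and less RNA per cell cannot be told apart.

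**Figure D1:**
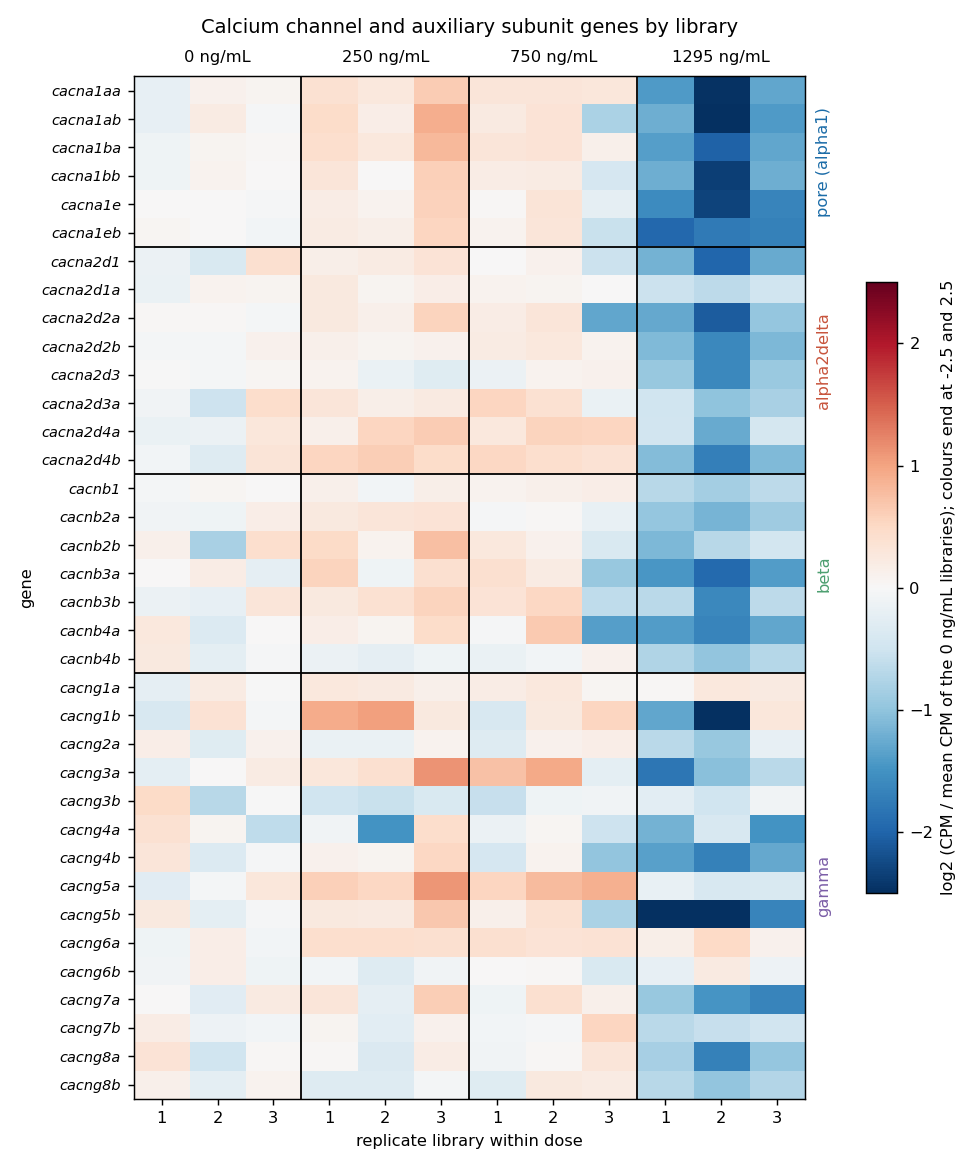
Level of each of the 36 genes (down the page, grouped by subunit class) in each of the 12 libraries (across, by dose in ng/mL and replicate), as log2 of CPM over the mean CPM of the 0 ng/mL libraries. At 1295 ng/mL 34 of the 36 genes had a negative log2 fold change, the others being cacng1a and cacng6a, and single libraries such as 750 ng/mL replicate 3 and 1295 ng/mL replicate 2 are lower than their partners for many genes.

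The pore genes shared a narrow range of change at 1295 ng/mL, with log2 fold changes between -1.81 and -1.51 (median -1.64). For cacna1aa, a P/Q-type pore gene, the 1295 ng/mL libraries had 54.6, 26.4 and 59.0 CPM, against 126, 158 and 153 CPM in the 0 ng/mL libraries (log2 fold change -1.64, SE 0.21, adjusted p = 5.27e-05). Its copy cacna1ab had 12.4, 4.61 and 10.9 CPM at 1295 ng/mL, against 25.0, 33.6 and 28.45 CPM at 0 ng/mL (-1.63, SE 0.32, adjusted p = 0.00106). In both copies replicate 2 was the lowest of the 1295 ng/mL libraries, and even the highest of the 3 lay below every control.

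The N-type pore gene cacna1ba had 13.4, 8.56 and 14.3 CPM at 1295 ng/mL, against 32.6, 36.7 and 35.55 CPM at 0 ng/mL (log2 fold change -1.53, SE 0.17, adjusted p = 2.26e-05). For cacna1bb the values were 9.35, 4.28 and 9.33 CPM, against 20.3, 23.4 and 22.0 CPM at 0 ng/mL (-1.51, SE 0.24, adjusted p = 0.000255). The gene named cacna1e, an R-type pore by its name alone, had 5.82, 3.49 and 5.50 CPM at 1295 ng/mL, against 17.5, 17.5 and 17.0 CPM at 0 ng/mL (-1.81, SE 0.19, adjusted p = 1.43e-05). Control libraries differed little in these 3 genes, and replicate 2 was again the lowest at 1295 ng/mL. The second R-type gene, cacna1eb, did not share that order: it had 1.795, 2.04 and 2.16 CPM at 1295 ng/mL, against 7.26, 7.04 and 6.65 CPM at 0 ng/mL (-1.80, SE 0.22, adjusted p = 3.76e-05).

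**Figure D2:**
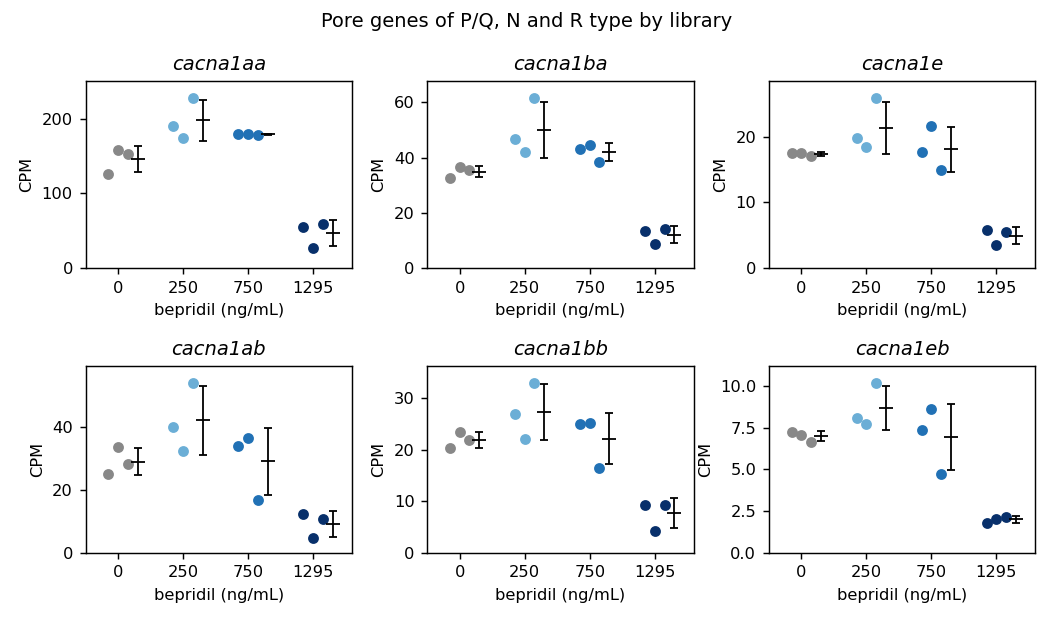
CPM of the 6 pore genes (y axes from 0) by bepridil dose from 0 to 1295 ng/mL (x axes), with single libraries as points and the mean and SD of 3 libraries as bars. In each gene all 1295 ng/mL points lie below all points of the other doses, and 750 ng/mL replicate 3 is the lowest of its group.

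The alpha2delta genes had log2 fold changes between -1.43 and -0.56 at 1295 ng/mL (median -1.20), and 5 of 8 fell at least 2-fold. In mammals, alpha2delta1 and alpha2delta2 bind the drug gabapentin, and alpha2delta1 is the form of skeletal muscle as well as of neurons. The gene cacna2d1a had 56.0, 51.8 and 57.6 CPM at 1295 ng/mL, against 72.1, 86.7 and 84.7 CPM at 0 ng/mL (log2 fold change -0.56, SE 0.09, adjusted p = 0.000307). The second gene named for this subunit, cacna2d1, had 2.29, 1.32 and 2.16 CPM at 1295 ng/mL, against 4.685, 4.005 and 6.87 CPM at 0 ng/mL (-1.43, SE 0.26, adjusted p = 0.000585). Neither gene's groups overlapped.

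Both genes of alpha2delta2 fell. The values of cacna2d2a were 6.13, 3.49 and 7.54 CPM at 1295 ng/mL, against 15.1, 15.1 and 14.3 CPM at 0 ng/mL (log2 fold change -1.37, SE 0.32, adjusted p = 0.0038). Those of cacna2d2b were 14.7, 10.4 and 14.7 CPM, against 30.8, 30.6 and 34.2 CPM (-1.26, SE 0.12, adjusted p = 8.68e-06). No treated library of either gene reached a control. In 750 ng/mL replicate 3, cacna2d2a was at 6.03 CPM, beside 16.9 and 18.3 CPM in the other 750 ng/mL libraries.

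For alpha2delta3, cacna2d3 had 10.5, 6.65 and 10.6 CPM at 1295 ng/mL, against 20.2, 19.7 and 21.2 CPM at 0 ng/mL (log2 fold change -1.13, SE 0.16, adjusted p = 0.000103). Its copy cacna2d3a had 5.70, 4.02 and 4.57 CPM, against 7.60, 5.64 and 10.9 CPM (-0.76, SE 0.23, adjusted p = 0.018). In cacna2d3a, 1295 ng/mL replicate 1 lay just above control replicate 2, so the groups overlapped. The call on cacna2d3a was lost without control replicate 3 (-0.48, adjusted p = 0.124), without 1295 ng/mL replicate 2 (-0.64, adjusted p = 0.0717) and without 1295 ng/mL replicate 3 (-0.73, adjusted p = 0.0514).

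Alpha2delta4 is the form of photoreceptor synapses in mammals. Its gene cacna2d4b had 11.5, 7.51 and 11.3 CPM at 1295 ng/mL, against 23.2, 19.5 and 30.5 CPM at 0 ng/mL (log2 fold change -1.27, SE 0.17, adjusted p = 6.97e-05). The copy cacna2d4a had 3.84, 2.24 and 3.96 CPM, against 4.74, 4.79 and 6.48 CPM (-0.67, SE 0.22, adjusted p = 0.0259). Its groups did not overlap, but the call was lost without control replicate 3 (-0.51, adjusted p = 0.127) and without 1295 ng/mL replicate 2 (-0.45, adjusted p = 0.122). Of 16 photoreceptor markers, 14 were lower and 0 higher at 1295 ng/mL (median log2 fold change -1.10), against 22.2% lower and 18.8% higher over all genes. Their summed level was 1530 to 2601 CPM at 1295 ng/mL, against 3268 to 5734 CPM at 0 ng/mL, and none of them was at 0 in any library. Their part in the result was not tested.

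Of the beta genes, 6 of 7 fell at 1295 ng/mL (median log2 fold change -0.92). Beta1 is the beta subunit of skeletal muscle, and zebrafish that lack cacnb1 are paralysed. The gene cacnb1 had 37.4, 33.65 and 38.3 CPM at 1295 ng/mL, against 58.0, 62.25 and 60.6 CPM at 0 ng/mL (log2 fold change -0.72, SE 0.09, adjusted p = 4.01e-05). All 3 treated libraries lay below all controls with a gap wider than either group.

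Beta2 is the main beta subunit of the mammalian heart. The gene cacnb2a had 7.00, 6.06 and 7.35 CPM at 1295 ng/mL, against 12.9, 12.6 and 15.3 CPM at 0 ng/mL (log2 fold change -0.996, SE 0.12, adjusted p = 4.15e-05). The gene cacnb2b had 1.61, 2.17 and 2.53 CPM, against 3.83, 2.002 and 4.68 CPM (-0.74, SE 0.30, adjusted p = 0.0634), and its groups overlapped through control replicate 2. Without that library cacnb2b passed (-1.01, adjusted p = 0.00892). RefSeq lists each of these names as a synonym of the other, so which locus is meant depends on the annotation.

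Beta3 and beta4 are known mainly from neurons. The gene cacnb3a had 1.86, 1.32 and 1.92 CPM at 1295 ng/mL, against 5.08, 5.76 and 4.34 CPM at 0 ng/mL (log2 fold change -1.57, SE 0.31, adjusted p = 0.00129). Its copy cacnb3b had 4.52, 2.37 and 4.57 CPM, against 6.51, 6.31 and 8.90 CPM (-0.92, SE 0.28, adjusted p = 0.0175). The cacnb3b call was lost without control replicate 3 (-0.74, adjusted p = 0.0847) and without 1295 ng/mL replicate 2 (-0.66, adjusted p = 0.0772), and in neither gene did the groups overlap.

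The gene cacnb4a had 2.04, 1.71 and 2.16 CPM at 1295 ng/mL, against 6.46, 4.25 and 5.35 CPM at 0 ng/mL (log2 fold change -1.44, SE 0.37, adjusted p = 0.00626). For cacnb4b the values were 38.4, 32.7 and 39.9 CPM, against 76.6, 54.7 and 63.6 CPM (-0.81, SE 0.12, adjusted p = 0.000172). In both the treated libraries stayed below the lowest control. Of the counts of this pair, the a copy held 4.98% to 5.15% at 1295 ng/mL, against 7.21% to 7.78% at 0 ng/mL. These ranges did not overlap. An exact permutation test gave the smallest p it can reach with so few libraries, 0.1 (adjusted p = 0.283 over 17 pairs). That test could not pass, so it cannot decide whether the shares differed.

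Calls on the gamma genes were mixed at 1295 ng/mL. Of the 11 TARP genes, 7 were lower and 0 higher (median log2 fold change -0.94), against 22.2% lower and 18.8% higher over all genes. Of the 4 gamma1 and gamma6 genes 0 were called in either direction (median 0.07, 0 also with DESeq2), with 1 of the 4 at an unadjusted p under 0.05. With only 4 genes, of which cacng1b had 5, 1 and 15 counts at 1295 ng/mL, an absence of calls says little. The difference between the TARP genes and these 4 was not tested. The summed level of the 11 genes was 34.8 to 46.0 CPM at 1295 ng/mL, against 49.45 to 77.65 CPM at 0 ng/mL. That of the 4 genes was 78.1 to 97.1 CPM at 1295 ng/mL, against 70.05 to 88.9 CPM at 0 ng/mL.

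Among the TARP genes, cacng8a had 5.14, 2.83 and 4.70 CPM at 1295 ng/mL, against 11.66, 6.49 and 9.41 CPM at 0 ng/mL (log2 fold change -1.12, SE 0.24, adjusted p = 0.00205). Its copy cacng8b had 8.61, 7.05 and 8.40 CPM, against 15.3, 11.65 and 14.8 CPM (-0.79, SE 0.16, adjusted p = 0.00157). The gene cacng7a had 1.42, 0.988 and 0.865 CPM, against 2.74, 2.25 and 3.21 CPM (-1.32, SE 0.28, adjusted p = 0.00201). None of these 3 genes had overlapping groups, and neither did cacng7b, whose log2 fold change of -0.57 (SE 0.23) missed the threshold at an adjusted p of 0.0636 and passed with total counts (-0.83, adjusted p = 0.0097). The cacng7b libraries stood at 1.30, 1.38 and 1.48 CPM at 1295 ng/mL, against 2.34, 1.88 and 1.97 CPM at 0 ng/mL.

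Several TARP genes had few counts. In cacng5b, 3, 2 and 6 counts at 1295 ng/mL stood against 24, 16 and 20 counts at 0 ng/mL, which are 0.186, 0.132 and 0.371 CPM against 1.37, 0.971 and 1.13 CPM. The log2 fold change was -2.29 (SE 0.44) with an adjusted p of 0.000898, the lowest fold change among the 36 members. The gene cacng4b had 0.991, 0.790 and 1.05 CPM at 1295 ng/mL, against 3.14, 2.002 and 2.48 CPM at 0 ng/mL (-1.42, SE 0.30, adjusted p = 0.00178). Its copy cacng4a did not pass, with 5, 8 and 4 counts at 1295 ng/mL, against 16, 12 and 8 counts at 0 ng/mL (-0.94, SE 0.48, adjusted p = 0.131).

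The calls on gamma2 and gamma3 genes changed with single libraries. The gene cacng2a, whose mouse counterpart is mutated in the stargazer strain, had 5.94, 4.94 and 8.22 CPM at 1295 ng/mL, against 10.6, 7.71 and 10.2 CPM at 0 ng/mL (log2 fold change -0.58, SE 0.19, adjusted p = 0.0278). Its groups overlapped, and the call was lost without control replicate 1 or 3 (-0.49 and -0.52, adjusted p = 0.091 and 0.0898) and without 1295 ng/mL replicate 1 or 2 (-0.53 and -0.42, adjusted p = 0.0852 and 0.131). The gene cacng3a had 5, 8 and 11 counts at 1295 ng/mL, against 16, 18 and 22 counts at 0 ng/mL, or 0.310, 0.527 and 0.680 CPM against 0.914, 1.09 and 1.24 CPM (-1.09, SE 0.42, adjusted p = 0.0487). That call on cacng3a did not hold with DESeq2 (adjusted p = 0.0627), limma-voom (0.0574), size factors of another kind (0.0501), no filter on low counts (0.0522) or the replicate number as a block (0.0613), nor without any one control (0.0552 to 0.135) or without 1295 ng/mL replicate 1 or 2 (0.167 and 0.093). Its copy cacng3b had 15.3, 13.0 and 17.3 CPM at 1295 ng/mL, against 25.8, 11.3 and 18.2 CPM at 0 ng/mL (-0.28, SE 0.22, adjusted p = 0.324). Its controls spanned the whole range of the treated libraries. Without control replicate 1 the value of cacng3b was 0.04, and without control replicate 2 it was -0.53 and passed (adjusted p = 0.0273).

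Gamma1, in mammals a subunit of the skeletal muscle channel, had no call at 1295 ng/mL. The gene cacng1a had 36.3, 42.9 and 41.6 CPM at 1295 ng/mL, against 30.5, 41.1 and 35.8 CPM at 0 ng/mL (log2 fold change 0.17, SE 0.11, adjusted p = 0.237), and -0.09 when scaled by total counts alone. Its copy cacng1b had only 5, 1 and 15 counts, against 10, 16 and 13 counts (-0.77, SE 0.55, adjusted p = 0.278), and it passed without 1295 ng/mL replicate 3 (-1.94, adjusted p = 0.0222). For cacng6a the values were 25.2, 32.1 and 24.4 CPM at 1295 ng/mL, against 21.1, 25.6 and 21.6 CPM at 0 ng/mL (0.26, SE 0.11, adjusted p = 0.0826, and -0.00 by total counts). The groups of cacng6a overlapped, and without control replicate 2 the gene passed (0.35, adjusted p = 0.0347). The gene cacng6b had 16.3, 21.9 and 17.2 CPM, against 17.8, 21.2 and 17.4 CPM (-0.03, SE 0.14, adjusted p = 0.889, and 0.00 with DESeq2's size factors). In cacng1a, cacng6a and cacng6b, replicate 2 was the highest library of both groups.

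**Figure D3:**
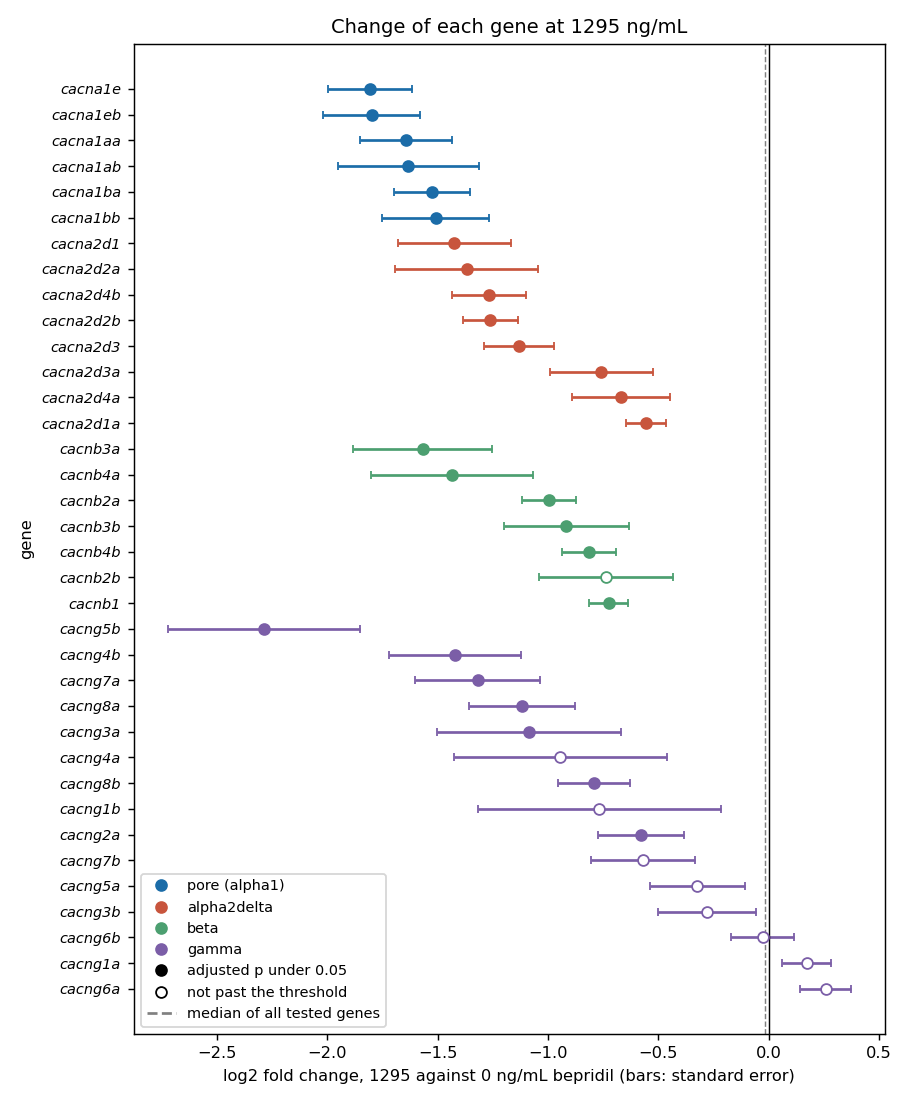
Log2 fold change of each of the 36 genes at 1295 against 0 ng/mL bepridil (x axis, bars are the SE), sorted within subunit class and coloured by it, with filled points for an adjusted p under 0.05 and a dashed line at the median of all tested genes. The 6 pore genes lie between -1.81 and -1.51, and the points at or above the dashed line are the gamma genes cacng1a and cacng6a.

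RefSeq's zebrafish assembly GRCz12tu, in which 34 of the 36 names were found and cacna1e and cacna2d1 were not, so that the locus behind these names is uncertain, places several gamma genes side by side. One run holds cacng6a, cacng8a and cacng7a, another cacng6b, cacng8b and cacng7b, a further one cacng5a, cacng1a and cacng4a, and cacng1b lies beside cacng4b. Values of neighbours at 1295 ng/mL stand side by side here, with no test of their difference. The genes cacng8a and cacng7a had log2 fold changes of -1.12 and -1.32 beside 0.26 in cacng6a, and cacng8b and cacng7b had -0.79 and -0.57 beside -0.03 in cacng6b. In the third run cacng1a had 0.17 beside -0.32 in cacng5a and -0.94 in cacng4a, and of these 3 genes 0 passed at that dose.

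**Figure D4:**
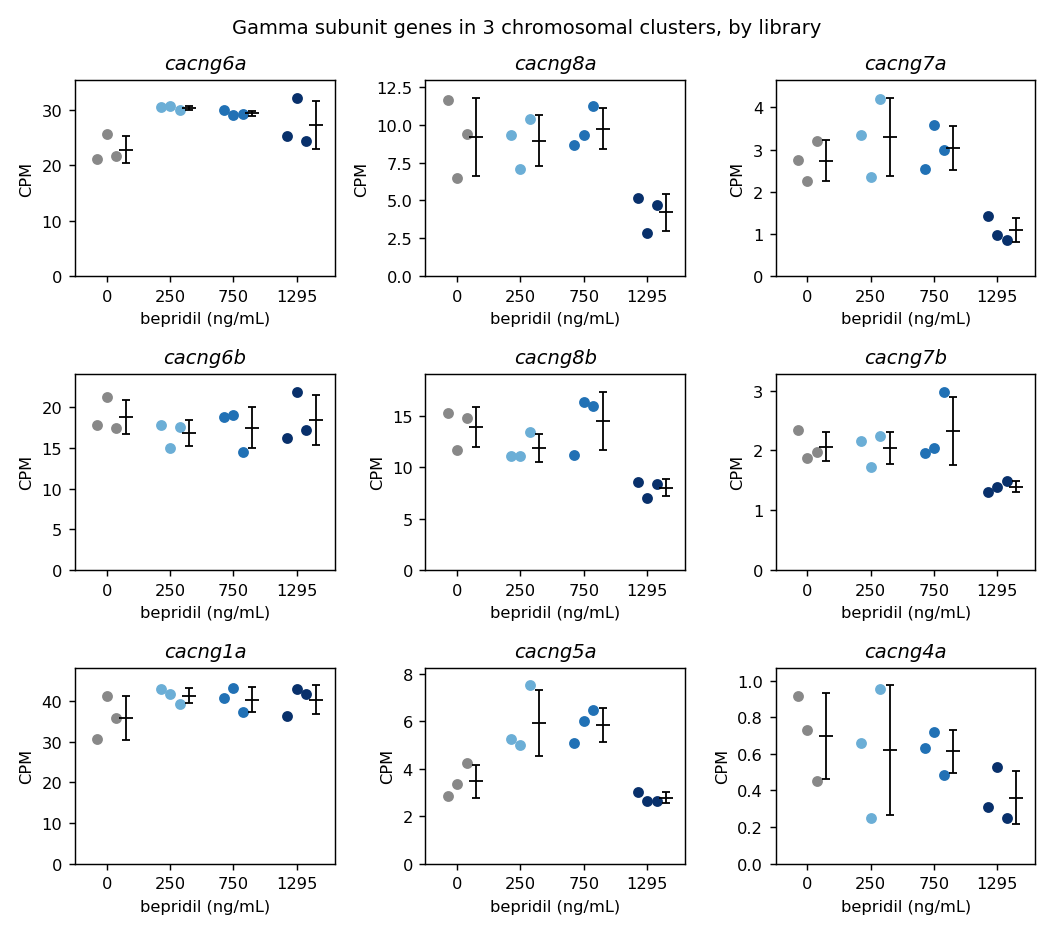
CPM of 9 gamma genes (y axes from 0) by bepridil dose from 0 to 1295 ng/mL (x axes), 1 run of neighbouring genes in RefSeq's assembly per row of panels, with single libraries as points and the mean and SD of 3 libraries as bars. At 1295 ng/mL the points of cacng8a, cacng7a, cacng8b and cacng7b lie below all controls, while those of cacng6a, cacng6b and cacng1a overlap them.

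Partner genes of these subunits were counted in the same comparison, in which 22.2% of all tested genes were lower and 18.8% higher. Of 21 tested genes of the presynaptic release site, which hold neuronal calcium channels beside docked vesicles, 19 were lower and 0 higher at 1295 ng/mL (median log2 fold change -1.03). The scaffold gene rimbp2 fell by 1.38 (SE 0.13, adjusted p = 6.57e-06) and the adhesion gene nrxn1b by 1.37 (SE 0.15, adjusted p = 1.9e-05). Of 16 AMPA receptor genes and genes of their other auxiliary proteins, 13 were lower and 0 higher (median -1.27), among them the receptor subunit genes gria2b (-1.74, SE 0.15, adjusted p = 5.34e-06) and gria3b (-1.43, SE 0.12, adjusted p = 3.95e-06). Of 19 genes of excitation-contraction coupling in muscle, 4 were higher and 6 lower (median 0.05), and 10 had positive and 9 negative fold changes. Their summed level was 10520 to 12030 CPM at 1295 ng/mL, against 8882 to 10680 CPM at 0 ng/mL, which overlap. The ryanodine receptor gene ryr1b, the calcium release channel of muscle, fell by 0.87 (SE 0.125, adjusted p = 0.000127). Of 6 genes of the RGK and Stac families, which bind calcium channels and set their activity, 1 was lower and 0 higher: rem2 (-1.20, SE 0.26, adjusted p = 0.002). The gene stac3, which the muscle channel needs and which is also listed among the coupling genes, was at 0.25 (SE 0.10, adjusted p = 0.0632).

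Marker genes of neurons, glia and hair cells were counted at the same doses, where 22.2% of all tested genes were lower and 18.8% higher. Of 17 neuron markers, 12 were lower and 0 higher at 1295 ng/mL (median log2 fold change -0.74), with a summed level of 1256 to 1466 CPM at 1295 ng/mL, against 1807 to 2614 CPM at 0 ng/mL. Among them eno2, nefmb and syt1a had log2 fold changes of -0.82, -0.93 and -0.94. The markers snap25a, snap25b and syt1a are also counted among the presynaptic genes above. The 6 pore genes summed to 49.4 to 101 CPM at 1295 ng/mL, against 229 to 277 CPM at 0 ng/mL. Of 10 glia markers, 6 were lower and 0 higher (median -0.44), summing to 739 to 866 CPM at 1295 ng/mL, against 839 to 1119 CPM at 0 ng/mL, which overlap. Of 9 hair cell markers, 2 were higher and 1 lower (median -0.25), summing to 246 to 256 CPM at 1295 ng/mL, against 181 to 187 CPM at 0 ng/mL. The gene pvalb9 averaged 159.8 ± 3.48 CPM at 1295 ng/mL, which was most of the sum there, and 90.04 ± 3.24 CPM at 0 ng/mL (SD, n = 3 each). The hair cell marker called lower was otofa (log2 fold change -0.63, SE 0.11, adjusted p = 0.000561), and 6 of the 9 had negative fold changes. No marker of these lists was at 0 in any library, and their part in the results above was not tested.

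Muscle markers moved the other way from the neuron markers, where 18.8% of all tested genes were higher and 22.2% lower. Of 22 skeletal muscle markers, 15 were higher and 1 lower at 1295 ng/mL (median log2 fold change 0.52). Their summed level was 97500 to 114400 CPM at 1295 ng/mL, against 71650 to 84010 CPM at 0 ng/mL. The marker atp2a1 is also counted among the coupling genes above. Of 9 heart markers, 5 were higher and 1 lower (median 0.43), summing to 190.0 to 258 CPM at 1295 ng/mL, against 183 to 199.8 CPM at 0 ng/mL, which overlap. Calls of higher genes depended on the scaling: by total counts alone 1401 of all genes were higher at 1295 ng/mL, against 4058 with the normalization factors. None of the muscle and heart markers was at 0 in any library. Beside them stood genes of subunits that mammals use in skeletal muscle. Gamma1 had cacng1a at 0.17 and cacng1b, with few counts, at -0.77, and beta1 had cacnb1 at -0.72. Alpha2delta1, which is also a form of neurons, had cacna2d1a at -0.56 and cacna2d1 at -1.43. In whole larvae these values are not those of muscle alone, and the part of the markers in them was not tested.

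**Figure D5:**
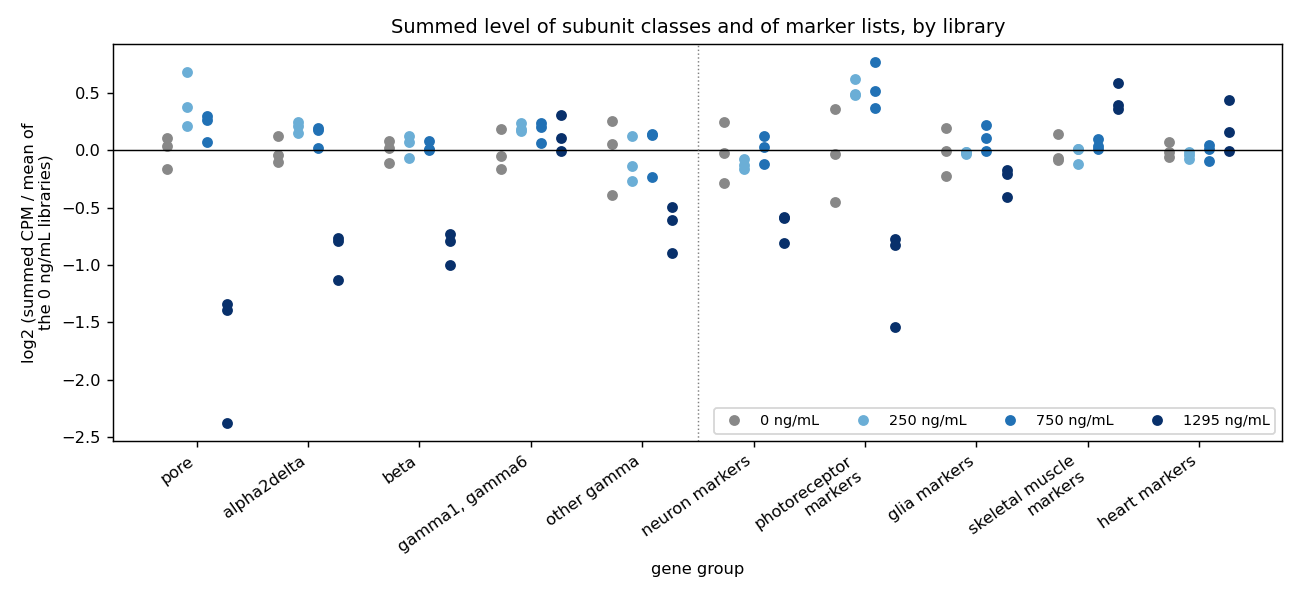
Summed CPM of each subunit class (left of the dotted line) and of each marker list (right of it) in every library, as log2 over the mean of the 0 ng/mL libraries (y axis), with doses in the order 0, 250, 750 and 1295 ng/mL within each group of points. At 1295 ng/mL the pore, alpha2delta, beta, other gamma, neuron and photoreceptor sums lie below all other libraries, and the skeletal muscle sum lies above them. The gamma1 and gamma6, glia and heart sums overlap those of other doses, and 1295 ng/mL replicate 2 has the lowest pore sum at 49.4 CPM.

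At the 2 lower doses few of these genes passed. At 250 ng/mL, 3 were higher than in 0 ng/mL larvae (8.33% of the members) and 0 lower, against 6.03% higher and 4.48% lower over all genes. At 750 ng/mL, 1 was higher (2.78%) and 0 lower, against 4.2% higher and 2.14% lower over all genes. At an unadjusted p under 0.05, 7 of 36 members passed at 250 ng/mL and 4 at 750 ng/mL, against 26.3% and 21.5% of all genes. DESeq2 called 4 members higher at 250 ng/mL and 1 at 750 ng/mL, and 0 lower at either dose. Over all genes it called 1216 and 988 higher at these doses, and 1437 and 728 lower. Both doses were set against the same control libraries. Positive log2 fold changes were found in 27 of 36 members at 250 ng/mL and in 24 at 750 ng/mL (56% and 52.8% of all genes). Every treated library lay above every control in 10 members at 250 ng/mL (27.8%, against 18.7% of all genes) and in 6 at 750 ng/mL (16.7%, against 14.9%). The median log2 fold change of the members was 0.29 at 250 ng/mL and 0.06 at 750 ng/mL, against 0.04 and 0.02 over all genes.

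The TARP gene cacng5a was higher at both of these doses. It had 5.27, 5.01 and 7.501 CPM at 250 ng/mL and 5.07, 5.99 and 6.45 CPM at 750 ng/mL, against 2.86, 3.34 and 4.23 CPM at 0 ng/mL. The log2 fold change was 0.77 at 250 ng/mL (SE 0.20, adjusted p = 0.0224) and 0.75 at 750 ng/mL (SE 0.20, adjusted p = 0.0362). Neither dose overlapped the controls. At 1295 ng/mL the gene had 3.03, 2.63 and 2.66 CPM and did not pass against 0 ng/mL (-0.32, SE 0.21, adjusted p = 0.239). Scaled by total counts alone, it passed as lower (-0.58, adjusted p = 0.0461). The 250 ng/mL call on cacng5a was lost without control replicate 1 or 2 (adjusted p = 0.102 and 0.0564) and without 250 ng/mL replicate 3 (0.122). The 750 ng/mL call was lost without control replicate 1 or 2 (0.162 and 0.0817), without 750 ng/mL replicate 2 or 3 (0.0855 and 0.115), with total counts (0.0544) and with only the compared groups in the fit (0.0816).

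The gamma6 gene cacng6a had 30.4, 30.6 and 30.0 CPM at 250 ng/mL and 29.9, 29.0 and 29.2 CPM at 750 ng/mL, against 21.1, 25.6 and 21.6 CPM at 0 ng/mL. The 6 treated libraries lay close together and above all 3 controls. The log2 fold change was 0.41 at 250 ng/mL (SE 0.11, adjusted p = 0.0312), which was called, and 0.37 at 750 ng/mL (SE 0.11, adjusted p = 0.069), which was not. The call on cacng6a was lost without control replicate 1 or 3 (adjusted p = 0.116 and 0.0941), without any one 250 ng/mL library (0.0704 to 0.0773) and with only the compared groups in the fit (0.0531). Its copy cacng6b had 17.8, 15.0 and 17.6 CPM at 250 ng/mL, against 17.8, 21.2 and 17.4 CPM at 0 ng/mL (-0.16, SE 0.14, adjusted p = 0.509).

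The photoreceptor subunit gene cacna2d4b was the third gene higher at 250 ng/mL. It had 35.4, 37.4 and 33.6 CPM at 250 ng/mL, against 23.2, 19.5 and 30.5 CPM at 0 ng/mL (log2 fold change 0.54, SE 0.16, adjusted p = 0.04). At 750 ng/mL it had 34.97, 32.6 and 31.2 CPM (0.43, SE 0.16, adjusted p = 0.123), again above every control, of which replicate 3 was the highest. The call on cacna2d4b was lost without control replicate 1 or 2 (adjusted p = 0.129 and 0.127), without any one 250 ng/mL library (0.0847 to 0.107), without 750 ng/mL replicate 3 (0.0512) and with total counts (0.0708). The photoreceptor markers summed to 6244 to 6850 CPM at 250 ng/mL and 5750 to 7603 CPM at 750 ng/mL, against 3268 to 5734 CPM at 0 ng/mL. Of these 16 markers, 3 and 1 were called higher at the respective doses, against 6.03% and 4.2% of all genes. Their part in the result was not tested.

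The pore genes had positive log2 fold changes in 6 of 6 cases at 250 ng/mL (0.30 to 0.54), and 0 of them passed by edgeR's test. The nearest was cacna1ba, with 46.6, 41.9 and 61.5 CPM at 250 ng/mL, against 32.6, 36.7 and 35.55 CPM at 0 ng/mL (0.52, SE 0.16, adjusted p = 0.0513). With DESeq2 cacna1ba passed (0.48, adjusted p = 0.0353), as it did with limma-voom (0.50, adjusted p = 0.047), only the compared groups (adjusted p = 0.0447), at least 10 counts in every library (0.0482), and without 250 ng/mL replicate 2 (0.0389) or 1295 ng/mL replicate 2 (0.0224). For cacna1aa the 250 ng/mL libraries had 191, 175 and 228 CPM, against 126, 158 and 153 CPM at 0 ng/mL (0.44, SE 0.20, adjusted p = 0.181), and the gene passed without 1295 ng/mL replicate 2 (0.39, adjusted p = 0.0261). Of the 250 ng/mL libraries, replicate 3 was the highest in all 6 pore genes.

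Between the doses themselves, 0 members were higher and 0 lower at 750 against 250 ng/mL by edgeR's test, and over all genes the shares were also 0% higher and 0% lower. At an unadjusted p under 0.05, 2 members passed, as did 7.79% of all genes, and DESeq2 called 0 members and 1 gene higher and 4 lower over the whole table. The smaller of those unadjusted p-values was that of cacnb2a, with 13.3, 13.8 and 11.99 CPM at 750 ng/mL, against 16.2, 16.8 and 17.2 CPM at 250 ng/mL (log2 fold change -0.36, SE 0.12, adjusted p = 0.619). The median of the members was -0.11, against -0.00 over all genes.

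At 1295 against 750 ng/mL, 30 members were lower (83.3%) and 0 higher, against 28.7% lower and 23.4% higher over all genes, and DESeq2 called 28 lower and 0 higher. Every pore, alpha2delta and beta gene was lower, as were 9 of 15 gamma genes. The 6 without a call were cacng1a, cacng1b, cacng3b, cacng4a, cacng6a and cacng6b. Calls on cacng2a, cacng4b and cacng7b were each lost without at least 1 library (adjusted p up to 0.138, 0.0706 and 0.107). The call on cacng7b was also lost with DESeq2 (adjusted p = 0.0539). The TARP gene cacng5a had not passed against 0 ng/mL with the normalization factors. It had 3.03, 2.63 and 2.66 CPM at 1295 ng/mL, against 5.07, 5.99 and 6.45 CPM at 750 ng/mL (log2 fold change -1.07, SE 0.20, adjusted p = 0.000553). For cacna2d4b the log2 fold change was -1.70 (SE 0.17, adjusted p = 2.21e-06) and for cacna1aa -1.94 (SE 0.21, adjusted p = 5.16e-06). The beta gene cacnb2b passed narrowly (-0.76, SE 0.30, adjusted p = 0.0488), and not with DESeq2 (0.0526), limma-voom (0.0704), size factors of another kind (0.059) or no filter on low counts (0.0501), nor without 250 ng/mL replicate 3 (0.0521), 750 ng/mL replicate 1 or 2 (0.158 and 0.109) or 1295 ng/mL replicate 1 or 2 (0.165 and 0.1).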

How the data were processed

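RNA was extracted with RNAiso Plus and made into libraries with the TruSeq Stranded mRNA kit, per the labels' protocols. Reads were trimmed with Trimmomatic, aligned with HISAT2 to GRCz11 and counted with HTSeq, per the submitters' processing notes. For versions, and for whether counting used strand, the sources used here give nothing. The authors deposited unnormalized counts of reads for each gene. Each of the 12 libraries' own file held the same counts as the joint table. Libraries were grouped by the labelled dose, and no replicate pair was as close as sampling noise allows (chi-square per degree of freedom 3.69 to 16.08). Genes were filtered with filterByExpr, scaled by TMM and tested with edgeR 4.0.16 (R 4.3.3) by quasi-likelihood over all 12 libraries with dose as the only factor, leaving 8 residual degrees of freedom and a prior count of 0.125. Benjamini-Hochberg adjustment covered 21581 genes, and 18 names with no counts dropped out with the other low genes. What edgeR terms the biological coefficient of variation was 12.1%, a name that does not show the spread between these libraries to be biological. The steps were tested on simulated data. Alternatives were other scalings and filters, DESeq2 1.42.0, limma-voom (limma 3.58.1), the compared groups alone, the replicate number as a block, a threshold of 0.01 and leaving out each library. The members, gene lists and tests were chosen with earlier results of these data known. Members called against 0 ng/mL were to be named with all values, the other members by ranges, and up to 4 genes of each list by smallest p. Values of other members were added after they were seen. No sequences are printed.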

Additional observations from a re-analysis of the deposited data

How the results depend on the processing

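At 1295 against 0 ng/mL, 22 of the 27 lower calls held at an adjusted p under 0.05 in every alternative that tested the gene (a minimum of 10 counts in every library kept 32 members), and 5 were lost under at least 1 (cacna2d3a, cacna2d4a, cacnb3b, cacng2a and cacng3a). Leaving out 1 library of the compared groups gave 22 to 28 lower members and 0 to 1 higher, and leaving out 750 ng/mL replicate 3, chosen after seeing the data, gave 29 lower; the lowest count came without control replicate 3 or 1295 ng/mL replicate 2. At 250 ng/mL, the 3 higher members became 0 at an adjusted p under 0.01, 0 to 2 with 1 compared library left out, and 5 without 1295 ng/mL replicate 2, an alternative chosen after seeing the data; the 0 lower became 0 to 1. At 750 ng/mL, the 1 higher member became 0 with total counts, with only the compared groups and at 0.01, 0 to 2 with 1 library left out, and 2 without 1295 ng/mL replicate 2. Directions at 1295 ng/mL reversed in 4 genes, and the cause was not tested: cacng1a (-0.0869) and cacng6a (-0.0038) with total counts, cacng6b with RLE and DESeq2 size factors (0.0033 each) and lacking control replicate 2 (0.0664) or 1295 ng/mL replicate 1 (0.0545) or 3 (0.0209), within a range of -0.1597 to 0.0664, and cacng3b lacking control replicate 1 (0.0377; range -0.5335 to 0.0377). Over all genes, total counts gave 1401 higher and 8269 lower at 1295 ng/mL, against 4058 and 4790, and 2471 against 5054 higher at 1295 against 750 ng/mL. At 250 ng/mL the 1302 higher and 967 lower genes became 536 and 288 at 0.01, 637 and 470 without control replicate 1, and 705 and 365 when replicate 3 of 250 ng/mL was dropped; the lower became 1677 lacking 750 ng/mL replicate 3 and 1492 lacking replicate 2 of 1295 ng/mL. At 750 ng/mL the 906 higher genes became 467 with only the compared groups, 397 at 0.01, 427 without control replicate 1 and 494 when replicate 3 of 750 ng/mL was dropped, and the 461 lower became 728 with DESeq2, 150 at 0.01, 200 without control replicate 1, and 263 and 302 without 750 ng/mL replicates 1 and 2. At 0.01, 2395 genes were higher at 1295 ng/mL. With the replicate number as a block, 26 members were lower at 1295 ng/mL (cacng3a was lost) and 3 and 1 higher at 250 and 750 ng/mL. Whether the numbers pair the samples is open. In deviations from the mean of their dose, same-numbered libraries correlated between -0.21 and 0.14, with 3 of 18 pairs over 0.1. Differently numbered libraries correlated between -0.16 and 0.24, with 5 of 36 pairs over 0.1, and 4 of 12 libraries were closest to their own number. Such weak correlations cannot exclude a shared clutch or day. Depth limits cacng1b, cacng3a, cacng4a and cacng5b.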

Other observations

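Within single libraries, subunit genes that mammals use in skeletal muscle were set against each other, in ratios chosen after their values were seen. CPM of cacnb1 over CPM of cacng1a was 0.911 ± 0.123 at 1295 ng/mL and 1.70 ± 0.193 at 0 ng/mL (SD, n = 3 each). CPM of cacna2d1a over CPM of cacng1a was 1.38 ± 0.168 at 1295 ng/mL and 2.28 ± 0.148 at 0 ng/mL (SD, n = 3 each). Neither ratio was corrected for gene length, so only its change between doses can be read.

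Log2 ratios of the first gene's counts to the second's (0.5 added to each) were taken in 17 pairs, matched as copies by name. They were compared at 1295 against 0 ng/mL. The pairs include cacna1e, cacna2d1, cacnb2a and cacnb2b, whose loci are uncertain, so not every pair is an established pair of copies. With 3 libraries against 3, the smallest p of an exact two-sided permutation test is 0.1, and the lowest adjusted p over the 17 pairs was 0.283, so no pair passed. In 6 of the 17 pairs the log2 ratios of the 2 groups did not overlap. The copy cacng5a held 87.8% to 95.2% of the counts of its pair at 1295 ng/mL, against 67.6% to 78.9% at 0 ng/mL. Its share at 1295 ng/mL rests on only 3, 2 and 6 counts of cacng5b. The copy cacng6a held 63.0% to 67.1% at 250 ng/mL, against 54.2% to 55.4% at 0 ng/mL, a difference that was not tested.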
